A study of Saccharomyces cerevisiae with 8 samples.

Results

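Antisense SUTs are stable unannotated transcripts, noncoding RNAs of budding yeast, that lie on the strand opposite a protein-coding gene. A SUT was counted as antisense when at least 50% of its length overlapped 1 open-reading-frame transcript (ORF-T) on the other strand. SUTs whose 5′ end lay within 500 bp upstream of the 5′ end of a non-overlapping ORF-T on the other strand were left out as divergent, a position typical of transcripts from a shared promoter region. The rule gave 224 antisense SUTs among 847 SUTs and 7272 features in all. It set aside 400 divergent SUTs, 181 of which also met the overlap limit, and 223 SUTs that were neither. The rule used positions only, so the read counts described here are independent of it.

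Nascent transcription was measured in Saccharomyces cerevisiae by NET-seq, in which RNA still held by RNA polymerase II is recovered with an epitope-tagged subunit of the enzyme and sequenced, giving the density of engaged polymerase on each strand. The 8 libraries fell into 4 groups of 2 biological replicates: wild type, and mutants of CAC1, CAC2 and CAC3, the genes of the 3 CAF-I (chromatin assembly factor I) subunits. All groups carried FLAG-tagged Rpb3 and were grown to mid-log phase in YPD, a rich glucose medium. The wild type was strain YSC0001 Rpb3-FLAG, and the mutants were YSB3062 Rpb3-FLAG cac1Δ, YSB3063 Rpb3-FLAG cac2Δ and YSB3064 Rpb3-FLAG cac3Δ, so strain background and the comparison of mutant with wild type cannot be told apart. Nothing in the labels says how the replicates were raised, so p-values measure the spread between these libraries.

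CAF-I is a histone chaperone that places histones H3 and H4 on DNA newly made at the replication fork. Nucleosomes over gene bodies are known to limit where RNA polymerase II can start, and transcription from the 3′ part of a gene back through its body is one source of antisense RNA. SUTs differ from CUTs, the cryptic unstable transcripts, in that they are detected in cells whose nuclear exosome is intact. Because NET-seq reads RNA that is still on the polymerase, RNA decay bears less on these counts than on a measure of total RNA.

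Counted reads per library ran from 1880299 in wild type replicate 1 to 7705151 in wild type replicate 2, and those of the mutants from 1959549 in cac1 replicate 1 to 7117979 in cac3 replicate 1. Each deleted gene stood lowest in its own mutant. RPKM is reads per kilobase of feature length, scaled to the library's counted reads times its TMM factor, a scaling between libraries computed from ORF-Ts. RLF2, which encodes Cac1, was at 38.9 and 37.4 RPKM in wild type and 14.1 and 13.5 in cac1 cells. It was at 36.7 and 37.9 in cac2 cells, and 39.6 and 37.1 in cac3 cells. CAC2 was at 64.9 and 56.98 in wild type, 76.5 and 68.96 in cac1 cells, 19.5 and 20.2 in cac2 cells, and 64.7 and 59.8 in cac3 cells. MSI1, which encodes Cac3, was at 70.5 and 73.2 in wild type, 77.8 and 77.8 in cac1 cells, 78.6 and 77.5 in cac2 cells, and 34.5 and 29.99 in cac3 cells. Some reads remained on each. The sources used here do not say how far each deletion reaches. The cells were of mating type a by their markers. The 6 a-cell markers (STE2, STE6, BAR1, MFA1, MFA2 and AGA2) summed to between 2611 and 2754 RPKM in wild type and between 2246 and 2618 in the mutants, with none at 0, and 1 of the 6 fell in the mean of the mutants. The 5 alpha-cell markers (STE3, MF(ALPHA)1, MF(ALPHA)2, SAG1 and YLR040C) summed to 70.8 and 50.1 in wild type and to between 73.5 and 111.8 in the mutants, all above both wild-type sums. Of these 5, 3 rose in the mean of the mutants, and MF(ALPHA)1 was at 0 in wild type replicate 2. The part of the mating-type markers in the results on antisense SUTs was not tested.

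The 224 antisense SUTs lay on all 16 chromosomes, 112 of them on the plus strand. They were 40 to 4208 bp long, with a median of 940 bp. The median SUT had 94.6% of its length over its ORF-T and covered 53.8% of that ORF-T. Both ends were mapped for 197 SUTs per the deposited annotation, the 5′ end alone for 16 and the 3′ end alone for 11. None overlapped another annotated feature on its own strand, so reads counted on an antisense SUT fell on no second feature of that strand. The 224 SUTs faced 221 ORF-Ts, since UBP7, BDS1 and YOR020W-A each faced a pair of them.

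Most antisense SUTs began inside the gene they faced. The 5′ end lay within the ORF-T for 177 and at or beyond its 3′ end for 47, and the median 5′ end was 236 bp upstream of the ORF-T's 3′ end. Of the 224, 100 lay wholly inside the ORF-T, 77 ran out past its 5′ end, 27 covered its 3′ end alone and 20 spanned the whole ORF-T. At the overlap limit, SUT575 opposite YHL012W (50.5% overlap) and SUT567 opposite YGR203W (50.9%) were just inside, and SUT702 opposite GSY2 (49.8%) and SUT635 opposite COX16 (49.3%) just outside. At the divergent limit, SUT227 opposite PIR1 and SUT032 opposite YCR023C were kept at 506 and 508 bp from the nearest such 5′ end, and SUT128 opposite MEP1 and SUT534 opposite ZIP2 were left out at 484 bp each. On average over the 3 mutants, these 8 had log2 changes of 0.48, -0.22, 0.33, 0.45, 1.60, 0.43, -0.29 and -0.04 in that order.

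Antisense SUTs took a larger share of the reads in every mutant library than in either wild-type library. They held 0.641% and 0.634% of counted reads in wild type, 0.806% and 0.788% in cac1 cells, 0.794% and 0.777% in cac2 cells, and 0.718% and 0.711% in cac3 cells. The groups did not overlap, and cac3 lay between wild type and the other mutants. Group means were 0.637% ± 0.00457, 0.797% ± 0.0124, 0.785% ± 0.0124 and 0.715% ± 0.00503 in the same order (SD, n = 2). The order was the same without the 10 antisense SUTs with most reads, at 0.478% ± 0.01298, 0.6298% ± 0.0266, 0.613% ± 0.0171 and 0.552% ± 0.0146. In bulk libraries, fewer transcribing cells and less transcription per cell cannot be told apart.

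**Figure D1:**
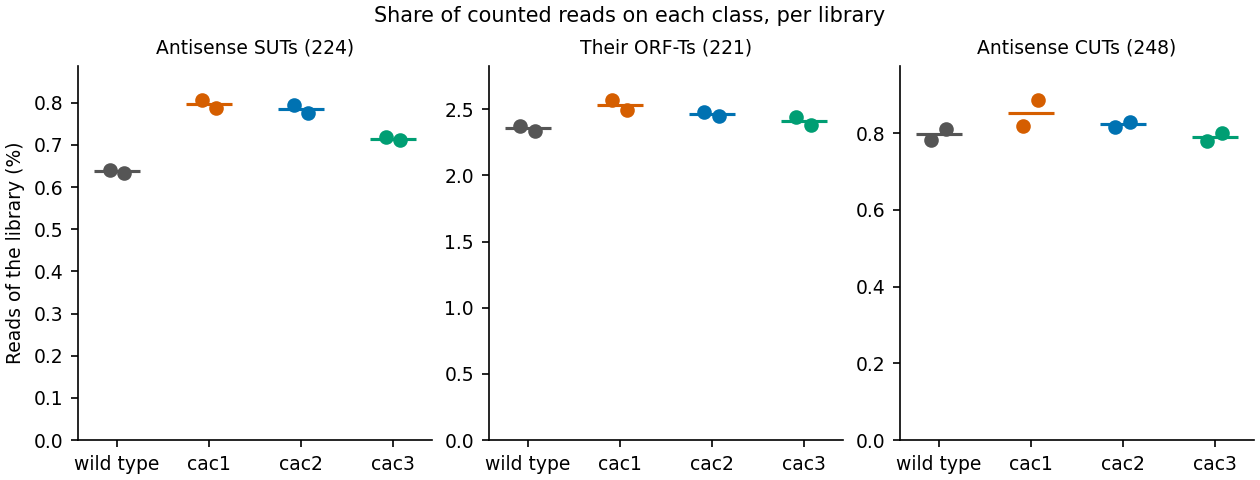
Percent of each library's counted reads (y axis, from 0) that fell on the 224 antisense SUTs, on the 221 ORF-Ts they face and on the 248 antisense CUTs, for wild type, cac1, cac2 and cac3 (x axis), with points for libraries and lines for means of 2. Antisense SUTs stood at 0.634% to 0.641% in wild type and at 0.711% to 0.806% in the mutants.

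Antisense CUTs, chosen by the same rule, were also counted. Their share was 0.782% and 0.811% in wild type, 0.819% and 0.886% in cac1 cells, 0.817% and 0.830% in cac2 cells, and 0.781% and 0.801% in cac3 cells. The cac3 libraries overlapped wild type there. The ORF-Ts facing antisense SUTs held 2.37% and 2.34% of reads in wild type, 2.57% and 2.49% in cac1 cells, 2.48% and 2.45% in cac2 cells, and 2.44% and 2.38% in cac3 cells. For these ORF-Ts too, every mutant library was above both wild-type libraries. Divergent SUTs held 1.556% and 1.540% in wild type and between 1.636% and 1.711% in cac1 and cac2 cells. SUTs that were neither held 0.636% and 0.624% in wild type and between 0.677% and 0.738% in cac1 and cac2 cells. In both classes cac3 overlapped wild type, at 1.527% and 1.565% for divergent SUTs and 0.654% and 0.635% for the others.

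Per length, antisense SUTs were of low to middle level. In RPKM, the median antisense SUT was at 18.01 and 17.3 in wild type, 24.1 and 23.5 in cac1 cells, 23.5 and 23.4 in cac2 cells, and 21.0 and 21.2 in cac3 cells. Every mutant library had a higher median than both wild-type libraries. This was not particular to antisense SUTs. Divergent SUTs had medians of 32.6 and 33.2 in wild type and between 34.4 and 38.9 in the mutants. SUTs that were neither had 23.6 and 21.3 in wild type and between 23.9 and 28.2 in the mutants. For antisense CUTs, cac3 replicate 1 (41.0) lay between the wild-type medians of 40.6 and 41.2. The ORF-Ts facing antisense SUTs had medians of 38.8 and 38.5 in wild type and between 39.3 and 42.4 in the mutants. All 5171 ORF-Ts had wild-type medians of 60.4 and 60.3, so the genes with an antisense SUT were themselves of lower level.

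The most transcribed antisense SUTs of wild type were SUT257, opposite YLR073C, and SUT103, opposite EPL1, a subunit of the histone acetyltransferase NuA4. SUT257 was at 205 and 234 in wild type, 309.6 and 278 in cac1 cells, 255 and 277 in cac2 cells, and 233 and 279.8 in cac3 cells. SUT103 was at 153 and 163 in wild type, 121 and 144 in cac1 cells, 141 and 146 in cac2 cells, and 150.2 and 148 in cac3 cells, between 2.55 and 3.3 times the level per length of EPL1 itself. Both were above 100 RPKM in all 8 libraries, and so were SUT154, opposite YHR022C-A, and SUT464, opposite APC11 of the anaphase-promoting complex. SUT464 was at 144 and 145 in wild type, 141 and 161 in cac1 cells, 154 and 168 in cac2 cells, and 151 and 157 in cac3 cells. SUT257 rose by a mean log2 change of 0.30 (SE 0.09, adjusted p = 0.0325), a call lost when either wild-type library, cac2 replicate 2 or cac3 replicate 2 was left out (adjusted p = 0.0589 to 0.224). SUT103 and SUT464 did not pass, with log2 changes of -0.16 (SE 0.07, adjusted p = 0.132) and 0.11 (SE 0.06, adjusted p = 0.255). SUT154 and SUT504, opposite the glycogen branching enzyme GLC3, did not pass either, at -0.23 (SE 0.10, adjusted p = 0.137) and -0.17 (SE 0.13, adjusted p = 0.403). With the replicate number as a block, SUT103 (adjusted p = 0.0422), SUT154 (0.0416) and SUT504 (0.0341) passed as falls, and SUT103 also did without cac1 replicate 2 (0.0369).

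Gene by gene, 223 of the 224 antisense SUTs had reads enough to be tested, and those that passed were mostly higher in the mutants. A feature is said to have risen or fallen only at an adjusted p below 0.05 in edgeR's quasi-likelihood test over 7271 features. In cac1, 67 rose and 8 fell, where 10.8% and 8.38% of all features did. In cac2, 57 rose and 5 fell, against 9.57% and 5.94%. In cac3, 25 rose and 4 fell, against 3.7% and 2.38%. On average over the 3 mutants, 71 rose (31.8% of those tested) and 7 fell (3.14%), against 11.9% and 8.86% of all features. SUT604, opposite the ubiquitin protease UBP7, had 2 reads in all and was the SUT not tested.

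Median log2 changes of antisense SUTs were 0.42 in cac1, 0.38 in cac2, 0.19 in cac3 and 0.31 in the mean of the mutants, where the medians over all features were 0.012, 0.015, 0.002 and 0.008. The mean's median corresponds to 1.24-fold. It was 0.29 with the 6 SUTs that had 0 wild-type reads set at the bound that a floor of 3 reads over the group allows. Of the 71 that rose, 27 did so by at least 1 on the log2 scale, and 65 had all 6 mutant libraries above both wild-type libraries. Of the 145 that did not pass, 97 had a positive log2 change. All 6 mutant libraries stood above both wild-type libraries for 84 of the 224 SUTs, and below them for 8, where 17.4% and 14.7% of all features did so.

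**Figure D2:**
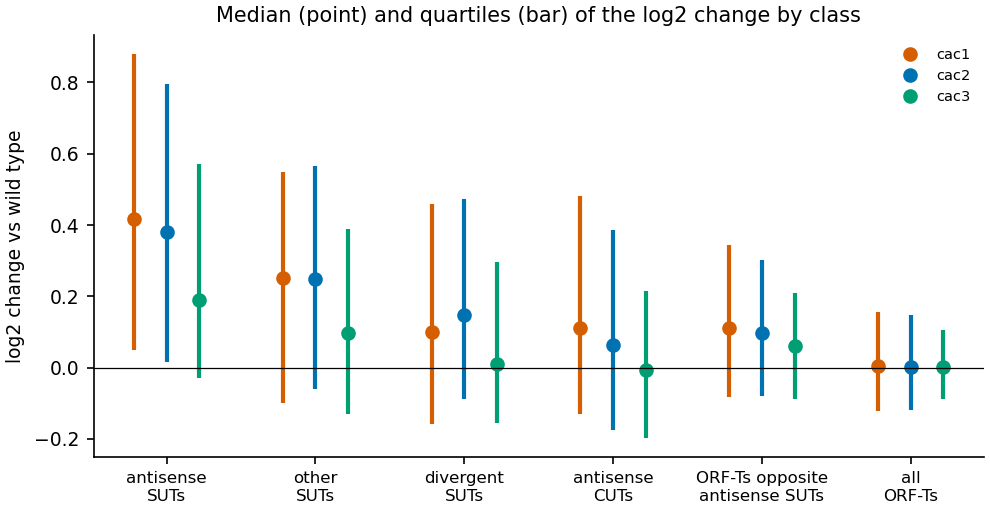
Log2 change against wild type (y axis) in cac1, cac2 and cac3 for 6 classes of feature (x axis). Points are medians, and bars run from the lower to the upper quartile. The medians of antisense SUTs, at 0.42, 0.38 and 0.19, are the highest of the 6 classes in each mutant. That of all ORF-Ts lies near 0, and the classes were not matched on level.

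The number of calls depended on the libraries used and on the test. Without wild type replicate 2, the deepest library, 15, 13 and 2 antisense SUTs rose in cac1, cac2 and cac3 and 13 in their mean, against 1.99%, 1.8%, 0.22% and 1.54% of all features. Leaving out wild type replicate 1 instead gave 47, 39, 10 and 45, against 7.39%, 6.16%, 1.88% and 7.12%. Falls numbered 1 in each of these comparisons without wild type replicate 2, against 1.4%, 1.09%, 0.0963% and 1.24%, and 5, 5, 1 and 5 without wild type replicate 1, against 5.07%, 3.26%, 0.976% and 4.74%. Leaving out cac1 replicate 2 left 33 rises in cac1 (7.29% of all features), leaving out either cac2 library left 32 or 30 in cac2 (5.86% and 5.08%), and leaving out either cac3 library left 8 or 9 rises (1.1% and 1.36%) and 0 falls (0.44% and 0.715%) in cac3. Falls in cac1 numbered 4 without either cac1 library and 5 without cac3 replicate 2, those in cac2 2, 1 and 3 without cac2 replicate 1, cac2 replicate 2 and cac3 replicate 1, and those in the mean 4 without cac3 replicate 1. Of all features, 4.33%, 6.05% and 6.07% fell in those settings in cac1, 3.3%, 3.01% and 4.62% in cac2, and 5.79% in the mean. DESeq2 gave 29, 29, 9 and 39 rises, against 5.53%, 4.41%, 1.73% and 5.58% of all features. With the replicate number as a block, 54 rose and 7 fell in cac3, where 8.27% and 6.13% of all features did, and 13 (5.83%) fell in cac1 and 14 (6.28%) in the mean of the mutants, where 12.8% and 14.1% of all features did.

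The share that rose depended on level. Features of low level rose often whatever their class, so antisense SUTs were set beside all features of like mean RPKM. Below 5 RPKM, 6 of 26 antisense SUTs rose (23.1%, against 25.9% of all features at that level). From 5 to 10 RPKM, 10 of 23 did (43.5% against 45.5%), and from 10 to 20 RPKM, 13 of 50 (26% against 30%). By these counts, antisense SUTs rose no more often than all features below 20 RPKM. From 20 to 40 RPKM, 23 of 68 rose (33.8% against 16.04%), and from 40 RPKM upward 19 of 56 (33.9% against 6.78%). Of ORF-Ts, 39.6%, 59.4%, 38.4%, 14.5% and 6.17% rose in the same bins from lowest to highest. Antisense SUTs thus rose less often than ORF-Ts in each bin below 20 RPKM, and more often in those above. The mean RPKM includes the mutant libraries, and the difference between classes within a bin was not tested.

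**Figure D3:**
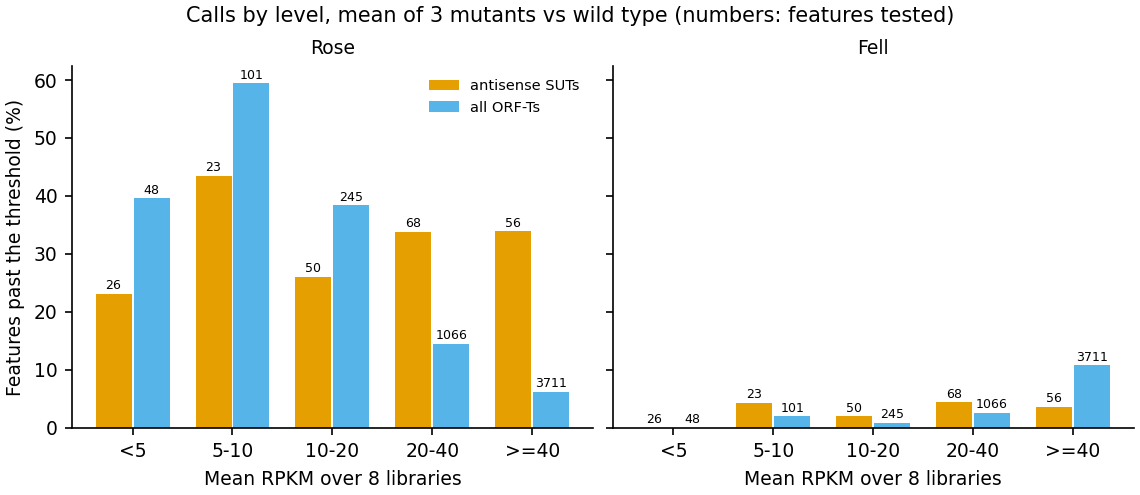
Percent of features that rose (left) or fell (right) in the mean of the 3 mutants (y axis) by mean RPKM over the 8 libraries (x axis), for antisense SUTs and all ORF-Ts. Numbers over bars are features tested, and at 40 RPKM and above, 33.9% of antisense SUTs and 6.17% of ORF-Ts rose. From 5 to 10 RPKM, 43.5% of antisense SUTs and 59.4% of ORF-Ts did.

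The medians of the other noncoding classes in the same fit were smaller. Of 248 antisense CUTs, 28 rose (11.3%) and 20 fell (8.06%) in the mean of the mutants, with a median log2 change of 0.07. Of 400 divergent SUTs, 17.75% rose and 7.5% fell (median 0.08), and of the 223 SUTs that were neither divergent nor antisense, 20.2% rose and 6.28% fell (median 0.19), where 11.9% and 8.86% of all features did. With an overlap of at least 80%, 42 of the 150 antisense SUTs tested rose and 7 fell. With a divergent limit of 1000 bp, 59 of 187 rose and 6 fell, against the same background. The classes differed in level. Wild-type medians in the 2 libraries were 18.01 and 17.3 RPKM for antisense SUTs and 40.6 and 41.2 for antisense CUTs. They were 32.6 and 33.2 for divergent SUTs and 23.6 and 21.3 for the SUTs that were neither. The classes were not matched on level, and differences between them were not tested.

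Antisense SUTs were also counted by their position on the ORF-T, where 11.9% of all features rose and 8.86% fell, with no matching on level. Of the 77 that ran past the 5′ end of the ORF-T, and so through its promoter-proximal region, 33 rose (42.9%) and 3 fell. Of the 20 that spanned the whole ORF-T, 8 rose (40%). Of the 27 that covered only the 3′ end, 7 rose (25.9%), and of the 99 tested that lay inside, 23 rose (23.2%) and 3 fell. The remaining fall was among those that covered only the 3′ end. The median log2 change was 0.31, 0.21, 0.15 and 0.44 in the same order. SUTs inside the ORF-T had the lowest wild-type levels, with medians of 11.8 and 13.2 RPKM in the 2 libraries, against 21.1 and 22.5 for those past the 5′ end.

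Of the 34 SUTs chosen by the naming rule, 26 passed the threshold in the mean of the mutants. Of those 26, 5 kept the call in every alternative fit that gave them an adjusted p. The rise with the smallest adjusted p was that of SUT406 (chromosome XVI, 379179 to 381003, plus strand), which lies inside RLM1 and covers 75.5% of it. RLM1 encodes a transcription factor of the cell wall integrity pathway. SUT406 had RPKM values of 22.03 and 18.4 in wild type, 85.7 and 81.98 in cac1 cells, 83.2 and 83.4 in cac2 cells, and 67.8 and 67.05 in cac3 cells. All 6 mutant libraries were over 3 times the level of either wild-type library. The mean log2 change was 1.99 (SE 0.07, adjusted p = 2.42e-07). RLM1 was at 47.9 and 57.04 in wild type, 57.2 and 58.01 in cac1 cells, 54.05 and 60.9 in cac2 cells, and 62.3 and 62.3 in cac3 cells, with a log2 change of 0.15 (SE 0.08, adjusted p = 0.177), and did not pass. The SUT to ORF-T ratio went from 0.460 and 0.323 in wild type to between 1.08 and 1.54 in the mutants, so that antisense transcription exceeded sense transcription per length in every mutant library.

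SUT158 (chromosome VIII, 221425 to 222337, plus strand) lies inside GIC1, which encodes an effector of the polarity GTPase Cdc42. It was at 11.3 and 15.5 in wild type, 48.7 and 54.9 in cac1 cells, 59.5 and 60.4 in cac2 cells, and 50.7 and 53.4 in cac3 cells. The mutant libraries were alike and far above both wild-type libraries. Its mean log2 change was 1.92 (SE 0.13, adjusted p = 1.07e-05), while GIC1 stood at 70.6 and 72.1 in wild type, 81.7 and 72.8 in cac1 cells, 77.5 and 75.7 in cac2 cells, and 67.98 and 73.2 in cac3 cells with a log2 change of 0.05 (SE 0.06, adjusted p = 0.639).

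SUT097 runs past the 5′ end of YER158C (chromosome V, 489921 to 491257, plus strand). Its level was 6.502 and 4.94 in wild type, 19.8 and 19.4 in cac1 cells, 22.4 and 19.1 in cac2 cells, and 14.6 and 13.9 in cac3 cells, and cac3 lay below the other mutants. The mean log2 change was 1.75 (SE 0.17, adjusted p = 0.000125). SUT102 covers 95.7% of CAK1, which encodes the kinase that activates cyclin-dependent kinases (chromosome VI, 78049 to 79329, plus strand). It was at 8.48 and 6.41 in wild type, 21.1 and 23.95 in cac1 cells, 29.8 and 25.8 in cac2 cells, and 19.4 and 16.6 in cac3 cells, again with no overlap between mutants and wild type, and its mean log2 change was 1.69 (SE 0.17, adjusted p = 0.000132). Neither YER158C nor CAK1 passed, with ORF-T changes of -0.14 (SE 0.08, adjusted p = 0.259) and 0.13 (SE 0.14, adjusted p = 0.536).

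The other large rises rested on few wild-type reads. SUT529, opposite an ORF-T annotated to YFR012W and YFR012W-A, had 3 and 9 reads in wild type and 12 to 33 in the mutant libraries. Its log2 change was 2.06 (SE 0.41, adjusted p = 0.0064), and the ORF-T rose beside it, by 2.25 (SE 0.31, adjusted p = 0.000822). SUT831, opposite an ORF-T annotated to YPR039W and TIP41, a gene of TOR signalling, had 8 and 7 reads in wild type, or 8.76 and 1.90 RPKM, and 13 to 42 in the mutants. Its log2 change was 1.96 (SE 0.42, adjusted p = 0.00921). Without wild type replicate 2 the change of SUT831 was 0.60 (adjusted p = 0.51), and SUT529 lost its call without that library (1.73, adjusted p = 0.259). SUT561, opposite an ORF-T annotated to LSB1 and YGR137W, had 0 and 2 reads in wild type against 37 over the 6 mutant libraries, a pooled ratio of 6.47 with an exact 95% counting interval of 1.67 to 55.4. SUT478, opposite HEM1, which encodes the first enzyme of haem synthesis, had 0 and 2 against 29, a ratio of 5.07 (1.28 to 43.9). SUT561 lost its call in DESeq2 and without any of 5 libraries (adjusted p = 0.051 to 0.229), among them both of wild type, and SUT478 in DESeq2 and without any of 6 (0.0504 to 0.256).

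Falls were few, and 4 of the 7 faced an ORF-T that rose, where 21.7% of the 221 facing ORF-Ts rose. The ORF-Ts of HBT1, JEN1 and GAL10, described next, were under 20 RPKM in every library. Of all ORF-Ts, 39.6% rose below 5 RPKM, 59.4% from 5 to 10 RPKM and 38.4% from 10 to 20 RPKM. The count was not matched on level, so nothing particular to the falls is read from it. SUT041 (chromosome IV, 59129 to 60697, plus strand) runs past the 5′ end of HBT1, a gene of polarized cell shape, and was the one that fell by more than 1 on the log2 scale. It was at 19.04 and 11.8 in wild type, 3.82 and 2.26 in cac1 cells, 4.43 and 2.21 in cac2 cells, and 4.47 and 4.31 in cac3 cells. Every mutant library was below both wild-type libraries. The mean log2 change was -2.08 (SE 0.25, adjusted p = 0.000423). HBT1 itself was at 8.67 and 9.97 in wild type, 17.6 and 17.02 in cac1 cells, 16.2 and 16.2 in cac2 cells, and 12.9 and 13 in cac3 cells and rose by 0.68 (SE 0.09, adjusted p = 0.000822). The ratio went from 2.20 and 1.19 in wild type to between 0.133 and 0.347, a log2 change of -2.80 (SE 0.34, adjusted p = 0.000299) by limma, so the strand with more polymerase per length switched from antisense to sense.

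JEN1, the lactate and pyruvate permease that glucose represses, faced SUT658 (chromosome XI, 22213 to 24221, minus strand), which covers 93.8% of it. SUT658 was at 22.7 and 22.4 in wild type, 16.7 and 15.1 in cac1 cells, 19.2 and 15.6 in cac2 cells, and 19.8 and 20.4 in cac3 cells. Both wild-type libraries were the highest. JEN1 was at 4.37 and 3.12 in wild type, 17.02 and 12.1 in cac1 cells, 15.8 and 12.2 in cac2 cells, and 9.36 and 8.802 in cac3 cells, higher in every mutant library than in wild type. JEN1 rose by 1.81 (SE 0.21, adjusted p = 0.000337). SUT658 fell by 0.36 on the log2 scale (SE 0.10, adjusted p = 0.0293), a call lost in DESeq2 (adjusted p = 0.162), with no scaling (0.0549) and without any of 4 libraries, the wild-type libraries among them (0.0991 and 0.255) beside cac1 replicate 2 (0.0534) and cac3 replicate 1 (0.0742). The log2 change of the ratio was -2.04 (SE 0.18, adjusted p = 2.92e-05), and it passed under every alternative run.

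The galactose locus showed the same arrangement. GAL7 and GAL10, which encode enzymes of galactose breakdown and are repressed in glucose, are annotated as 1 ORF-T, and SUT013 (chromosome II, 276760 to 278816, plus strand) runs past its 5′ end. GAL10 is known to carry an antisense noncoding transcript in glucose. SUT013 was at 25.4 and 31.2 in wild type, 18.2 and 20.6 in cac1 cells, 19.8 and 21.9 in cac2 cells, and 21.5 and 22.04 in cac3 cells, against 4.22 and 3.23 in wild type, 7.64 and 6.53 in cac1 cells, 9.6 and 6.51 in cac2 cells, and 5.97 and 5.39 in cac3 cells for the ORF-T. The SUT was higher in wild type than in any mutant library, and the ORF-T lower. SUT013 fell by 0.49 on the log2 scale (SE 0.10, adjusted p = 0.00713), and by 0.29 with an adjusted p of 0.316 without wild type replicate 2. The ORF-T rose by 0.95 (SE 0.18, adjusted p = 0.00506), and the ratio changed by -1.32 (SE 0.23, adjusted p = 0.00226). The SUT was still the stronger strand in all 8 libraries.

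The other falls were smaller than that of SUT041. SUT182, opposite SDS3 of the Rpd3L deacetylase complex, was at 123 and 133 in wild type, 101 and 98.7 in cac1 cells, 107 and 106 in cac2 cells, and 107 and 101 in cac3 cells, with a log2 change of -0.33 (SE 0.07, adjusted p = 0.00778). SUT314, opposite RKR1, a ubiquitin ligase of ribosome quality control, changed by -0.46 (SE 0.12, adjusted p = 0.0223), and SUT034, opposite TAF2 of TFIID, by -0.43 (SE 0.11, adjusted p = 0.0171). These 3 ORF-Ts did not pass. All 3 SUTs lost their calls in DESeq2 (adjusted p = 0.0782, 0.164 and 0.101) and without wild type replicate 2 (0.267, 0.491 and 0.432), and SUT314 also without cac3 replicate 1 (0.0575). SUT763, opposite ZPS1, a zinc-regulated cell surface protein, had a log2 change of -0.57 (SE 0.13, adjusted p = 0.0288) in cac3, where it fell, while ZPS1 rose in the mean of the mutants by 0.97 (SE 0.18, adjusted p = 0.005). In cac1 and cac2 SUT763 did not pass, and no pair of mutants differed in it past the threshold.

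**Figure D4:**
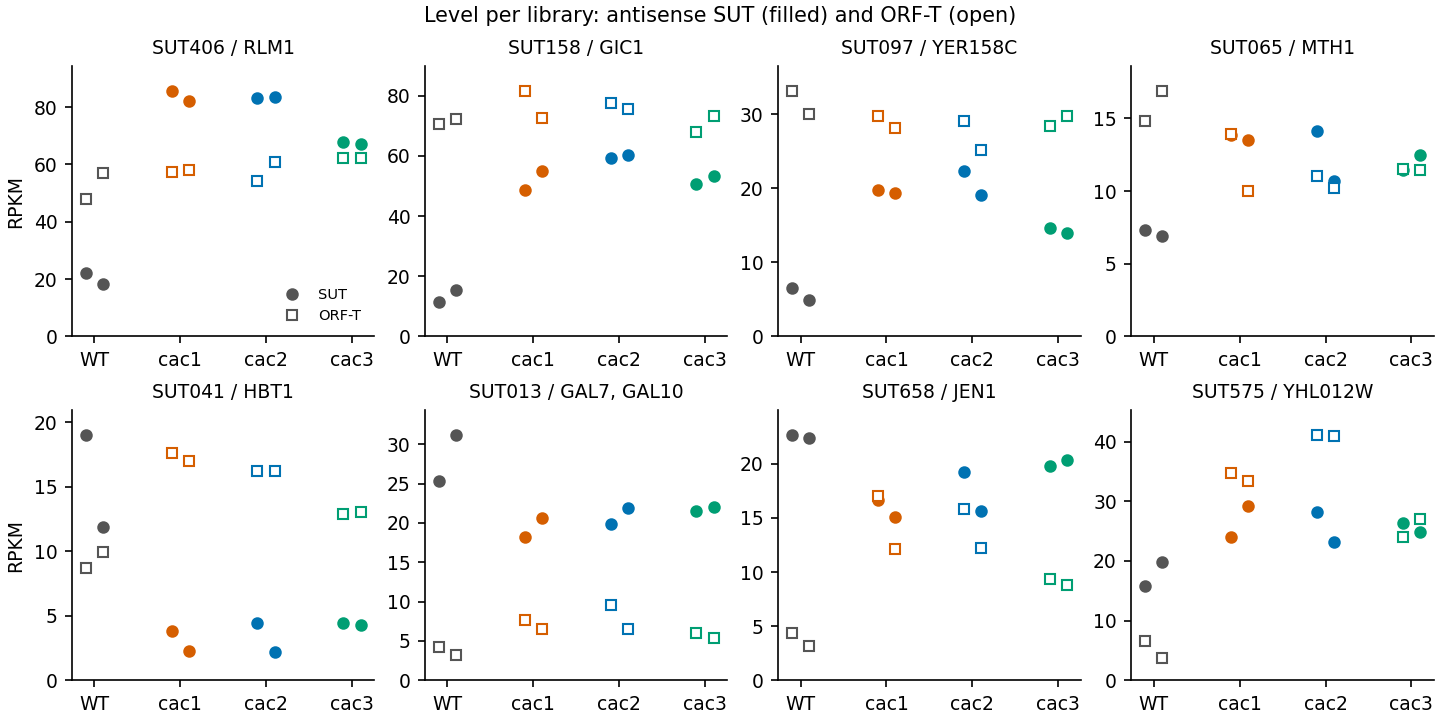
RPKM (y axis, from 0) in each of the 8 libraries by group (x axis, WT is wild type) for 8 antisense SUTs (filled circles) and the ORF-Ts they face (open squares). SUT406, SUT158 and SUT097 are higher in all mutant libraries than in wild type while their ORF-Ts did not pass, and SUT041, SUT013 and SUT658 are lower while their ORF-Ts are higher.

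Read counts on the paired strands were compared directly as the SUT to ORF-T ratio per length. The median ratio over the 224 pairs was 0.492 and 0.5004 in wild type, 0.654 and 0.632 in cac1 cells, 0.638 and 0.643 in cac2 cells, and 0.597 and 0.588 in cac3 cells. All mutant libraries were above both wild-type libraries. The SUT exceeded its ORF-T in all 8 libraries for 52 pairs, stayed below it in all 8 for 131, and changed order between libraries for 41. Ratios above 10 occurred in 6 and 8 pairs in wild type and in 0 to 6 in the mutant libraries.

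A change of the ratio was tested by limma over 993 pairs of a noncoding feature and an opposite ORF-T. In cac1, 54 of 223 antisense SUT pairs shifted towards the SUT and 24 towards the ORF-T, where 14.5% and 14.0% of all pairs did. In cac2 the numbers were 46 and 17, against 13.0% and 11.8%, and in cac3 20 and 11, against 4.83% and 6.04%. On average over the mutants they were 57 and 23, against 15.7% and 15.8%. The median log2 change of the ratio was 0.18 in that mean, and -0.0017 over all pairs. For 248 antisense CUT pairs, 29 shifted each way. With a replicate block, 27 pairs shifted towards the ORF-T in cac2, and in cac3 35 towards the SUT and 18 towards the ORF-T. The counts depended on single libraries, and shares over all pairs were not counted with the block or with a library left out. Towards the SUT and the ORF-T, 25 and 12 did in cac1 without cac1 replicate 1, and 3 and 0 in cac3 without cac3 replicate 1 or 3 and 3 without cac3 replicate 2. Shifts towards the SUT numbered 32 in cac1 without cac1 replicate 2, 30 in cac2 without cac2 replicate 1 and 12 in cac3 without wild type replicate 1, and shifts towards the ORF-T 15 in cac1 without wild type replicate 2.

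The ORF-Ts facing antisense SUTs were counted in the same way. Of 221, 50 rose and 12 fell in cac1 (22.6% and 5.43%, against 9.80% and 8.04% of all 5171 ORF-Ts). In cac2 39 and 12 did (17.6% and 5.43%, against 8.47% and 5.96%), and in cac3 23 and 5 (10.4% and 2.26%, against 3.54% and 1.80%). In the mean of the mutants 48 rose and 16 fell (21.7% and 7.24%, against 10.8% and 8.35%). These ORF-Ts were of lower level, with wild-type medians of 38.8 and 38.5 RPKM against 60.4 and 60.3 for all ORF-Ts, and ORF-Ts of lower level rose more often, as given above by level. The counts were not matched on level, and the difference was not tested. Where the SUT rose, the ORF-T did not pass in 48 of 71 pairs, rose in 18 and fell in 5. Where the SUT did not pass, 17.9% of ORF-Ts rose and 7.59% fell, against 25.4% and 7.04% where it rose, and this difference was not tested. Across the 223 pairs the log2 changes of the paired strands had a Pearson's r of -0.05 and a Spearman's rho of -0.09, and over the 133 pairs with at least 50 reads per library on average on each strand -0.11 and -0.18. These are descriptions across pairs that share the same libraries.

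**Figure D5:**
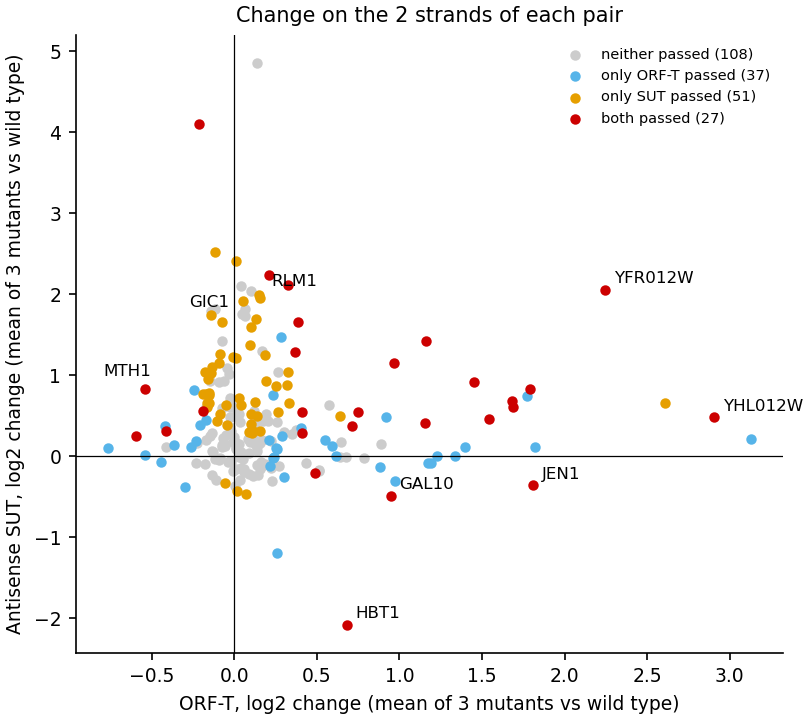
Log2 change of the antisense SUT (y axis) against that of its ORF-T (x axis), mean of the 3 mutants against wild type, for 223 pairs, coloured by which strand passed the threshold. The SUT alone passed in 51 pairs, the ORF-T alone in 37, both in 27 and neither in 108.

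The levels of the paired strands were also only weakly related. Within a library, Pearson's r between log2 levels of SUT and ORF-T ran from 0.04 to 0.13 over 224 pairs and Spearman's rho from 0.10 to 0.18. For the 248 antisense CUT pairs r ran from 0.30 to 0.35. The pairs share a library and its depth.

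Both strands passed in opposite directions in 9 pairs. In 5 of them the SUT rose and the ORF-T fell. MTH1, a corepressor in glucose sensing, faced SUT065, which covers 90.3% of it. SUT065 was at 7.33 and 6.94 in wild type, 13.9 and 13.5 in cac1 cells, 14.1 and 10.7 in cac2 cells, and 11.5 and 12.5 in cac3 cells, and MTH1 at 14.8 and 16.9 in wild type, 13.9 and 10.01 in cac1 cells, 11.1 and 10.2 in cac2 cells, and 11.5 and 11.5 in cac3 cells. Each strand's mutant libraries lay on one side of wild type. The SUT rose by 0.83 (SE 0.14, adjusted p = 0.00227) and the ORF-T fell by 0.54 on the log2 scale (SE 0.14, adjusted p = 0.0206), and the ratio changed by 1.30 (SE 0.18, adjusted p = 0.000608). Without wild type replicate 2, SUT065 changed by 0.77 with an adjusted p of 0.12.

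ERV1, a sulfhydryl oxidase of the mitochondrial intermembrane space, faced SUT550, which was at 49.8 and 58.3 in wild type, 66.8 and 66.9 in cac1 cells, 78.1 and 71.2 in cac2 cells, and 63.97 and 69.7 in cac3 cells against 75.1 and 95.9 in wild type, 67.05 and 59.9 in cac1 cells, 61.2 and 66.5 in cac2 cells, and 65.8 and 79.3 in cac3 cells for ERV1. The log2 changes were 0.31 (SE 0.08, adjusted p = 0.0162) and -0.41 (SE 0.11, adjusted p = 0.0249). SRB2, of the Mediator complex, faced SUT156, which was at 20.5 and 23.3 in wild type, 37.2 and 33.7 in cac1 cells, 30.7 and 39.4 in cac2 cells, and 26.7 and 31.3 in cac3 cells. The log2 changes were 0.56 (SE 0.13, adjusted p = 0.0148) and -0.19 (SE 0.06, adjusted p = 0.0447). SUT550 (adjusted p = 0.0804 and 0.0787) and SUT156 (0.0695 and 0.15) lost their calls without wild type replicate 1 or 2, and SUT550 also in DESeq2 (0.099), and their ratio changes, 0.71 (SE 0.11, adjusted p = 0.0015) and 0.76 (SE 0.13, adjusted p = 0.00203), passed under every alternative run. The other two pairs were RSB1 with SUT366 and SWI1 with SUT820, and SUT820 had 0 reads in wild type against 12 in the mutants. Falling SUTs with rising ORF-Ts were the 3 described at HBT1, JEN1 and GAL10, and SUT637 with YJR008W.

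Both strands rose in 18 pairs, and in none did both fall. YHL012W faced SUT575, which was at 15.8 and 19.8 in wild type, 23.9 and 29.2 in cac1 cells, 28.1 and 23.2 in cac2 cells, and 26.4 and 24.9 in cac3 cells. YHL012W was at 6.53 and 3.72 in wild type, 34.8 and 33.3 in cac1 cells, 41.2 and 40.9 in cac2 cells, and 23.9 and 26.96 in cac3 cells, over 3 times higher in every mutant library than in wild type. The SUT changed by 0.48 (SE 0.13, adjusted p = 0.0231) and the ORF-T by 2.91 (SE 0.20, adjusted p = 1.68e-05), so the ratio fell by 2.13 on the log2 scale (SE 0.26, adjusted p = 0.00033). SUT575 lost its call without either wild-type library (adjusted p = 0.11 and 0.113), without cac3 replicate 1 (0.0525) and in DESeq2 (0.0708).

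The respiratory gene YJL045W, a minor isoform of a succinate dehydrogenase subunit, faced SUT633, which was at 11.9 and 11.8 in wild type, 18.3 and 17.7 in cac1 cells, 21.4 and 17.3 in cac2 cells, and 16.3 and 17.4 in cac3 cells. YJL045W was at 3.199 and 2.72 in wild type, 10.7 and 9.66 in cac1 cells, 10.04 and 11.1 in cac2 cells, and 7.26 and 7.18 in cac3 cells, and the log2 changes were 0.60 (SE 0.12, adjusted p = 0.00564) and 1.69 (SE 0.17, adjusted p = 0.000132). MBR1 and SUT665 also rose together, by 1.15 (SE 0.19, adjusted p = 0.0024) and 0.41 (SE 0.09, adjusted p = 0.0118). In these pairs the ORF-T rose more than the SUT. At PCA1, a cadmium pump, the order was reversed, with 2.11 (SE 0.49, adjusted p = 0.0127) for SUT453 and 0.32 (SE 0.07, adjusted p = 0.00792) for the gene, and likewise at YPR127W, with 1.65 (SE 0.29, adjusted p = 0.00321) for SUT839 and 0.39 (SE 0.07, adjusted p = 0.00446). SUT633, SUT665, SUT453 and SUT839 lost their calls without wild type replicate 2 (adjusted p = 0.152, 0.43, 0.314 and 0.0799).

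At some members the SUT was by far the stronger strand. The ratios at HXT5, a hexose transporter of slow growth, ran from 9.47 to 35.8. Its SUT164 was at 72.5 and 75.2 in wild type, 59.5 and 73.5 in cac1 cells, 72.9 and 78.4 in cac2 cells, and 74.7 and 82.4 in cac3 cells, against 4.01 and 2.103 in wild type, 6.28 and 3.44 in cac1 cells, 4.14 and 3.35 in cac2 cells, and 4.38 and 3.73 in cac3 cells for HXT5. Neither passed. GLC3 faced SUT504, at 112 and 138 in wild type, 84.6 and 125 in cac1 cells, 112 and 121 in cac2 cells, and 101 and 127 in cac3 cells against 7.32 and 6.898 in wild type, 15.3 and 11.1 in cac1 cells, 12.1 and 8.01 in cac2 cells, and 8.45 and 7.94 in cac3 cells. GLC3 rose in cac1, by 0.85 (SE 0.22, adjusted p = 0.0248).

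The other members of highest ratio faced GAC1, a glycogen synthase regulator, YNL194C, FRE5, a putative ferric reductase, and GPH1, glycogen phosphorylase. GAC1 was at 3.54 and 2.42 in wild type, 5.05 and 5.72 in cac1 cells, 6.51 and 4.78 in cac2 cells, and 4.03 and 4.31 in cac3 cells, against 55.2 and 50.8 in wild type, 42.9 and 45.6 in cac1 cells, 49.3 and 51.7 in cac2 cells, and 49.6 and 48.8 in cac3 cells for SUT374, and rose by 0.89 (SE 0.21, adjusted p = 0.0135) while SUT374 had -0.13 (SE 0.06, adjusted p = 0.132) and fell in cac1, by 0.24 on the log2 scale (SE 0.07, adjusted p = 0.0397). YNL194C rose by 1.54 (SE 0.45, adjusted p = 0.0335) and SUT326 by 0.46 (SE 0.09, adjusted p = 0.00725). GPH1 rose by 0.71 (SE 0.16, adjusted p = 0.0117) and SUT843 by 0.37 (SE 0.09, adjusted p = 0.0171). FRE5 and SUT802 did not pass, though SUT802 passed as a fall with the replicate block (adjusted p = 0.0242) and without cac1 replicate 2 (0.0221). SUT326 and SUT843 lost their calls without wild type replicate 2 (adjusted p = 0.196 and 0.273), and SUT843 also without wild type replicate 1 (0.056) and in DESeq2 (0.15).

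Over the 52 pairs with the SUT above in all 8 libraries, 24 ORF-Ts rose and 1 fell, with a median ORF-T change of 0.58, while 16 SUTs rose and 3 fell (median 0.11). Over the 131 pairs with the SUT below in all 8, 16 ORF-Ts rose and 13 fell (median 0.03), while 40 of 130 SUTs tested rose and 1 fell (median 0.44). The strand of lower level had the larger median change in both sets. The ORF-Ts that rose were 46.2% of the first set and 12.2% of the second, where 11.9% of all features rose and 8.86% fell. Of all ORF-Ts, 59.4% rose from 5 to 10 RPKM and 6.17% from 40 RPKM upward. The sets were chosen by the levels, and median wild-type levels were 37.0 RPKM for SUTs and 6.96 for ORF-Ts in the first and 13.1 and 55.8 in the second, so the level and the set cannot be told apart.

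Genes facing antisense SUTs were also read by function, in groups put together after the gene names and values were seen. Many of these genes were of low level, where ORF-Ts of every kind rose often. Of all ORF-Ts, 39.6% rose below 5 RPKM, 59.4% from 5 to 10 RPKM and 38.4% from 10 to 20 RPKM, against 11.9% of all features, so nothing particular to a group is read from its count. Among 6 genes of nonfermentable carbon use (JEN1, CYB2, ACS1, CIT3, ATO2 and YAT2), 5 ORF-Ts rose and 2 SUTs rose and 1 fell. CIT3, a mitochondrial citrate and methylcitrate synthase, was at 5.96 and 5.25 in wild type, 17.7 and 16.02 in cac1 cells, 15.1 and 18.8 in cac2 cells, and 10.8 and 12.3 in cac3 cells, and its SUT822 at 11.7 and 16.3 in wild type, 34.6 and 30.6 in cac1 cells, 27.7 and 32.3 in cac2 cells, and 23.96 and 23.3 in cac3 cells. Both rose, by 1.45 (SE 0.17, adjusted p = 0.0003) and 0.91 (SE 0.14, adjusted p = 0.00164). Among the galactose genes, GAL2, the permease, rose by 1.68 (SE 0.26, adjusted p = 0.00164) and its SUT692 by 0.68 (SE 0.14, adjusted p = 0.00832), and GAL4, the activator, rose by 0.92 (SE 0.14, adjusted p = 0.00184) with its SUT394 at 0.48 (SE 0.24, adjusted p = 0.186).

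Opposite 3 genes of peroxisomal fatty acid oxidation, no SUT passed. POT1, the thiolase, was at 1.22 and 0.227 in wild type, 7.31 and 3.52 in cac1 cells, 4.397 and 4.34 in cac2 cells, and 3.63 and 2.08 in cac3 cells and rose by 3.13 (SE 0.59, adjusted p = 0.00467), while SUT177 was at 11.4 and 14.6 in wild type, 20.7 and 17.3 in cac1 cells, 16.5 and 11.2 in cac2 cells, and 16.05 and 16.3 in cac3 cells. POX1 rose by 1.23 (SE 0.25, adjusted p = 0.00759), with 0.00 (SE 0.12, adjusted p = 0.992) for SUT537. FOX2 and SUT236 did not pass. Of 4 genes of meiosis and sporulation (DMC1, SPO1, RIM4 and SWM1), 3 rose and 3 SUTs rose. DMC1, the meiotic recombinase, rose by 1.79 (SE 0.38, adjusted p = 0.00832) and SUT521 by 0.83 (SE 0.22, adjusted p = 0.0231).

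Of 8 genes of the cell wall and polarity (GIC1, RLM1, PIR1, PIR3, STE20, SCW4, DSE2 and SKN1), no ORF-T rose and 1 fell, and 3 SUTs rose. SUT660 at PIR3 and SUT150 at STE20 had 1 and 3 wild-type reads. Of 11 genes of transcription and chromatin, 2 SUTs rose and 2 fell, and 1 ORF-T rose and 3 fell. Among the ORF-Ts that fell was HTB2, a histone H2B gene. HTB2 was at 295 and 336 in wild type, 181 and 205 in cac1 cells, 233 and 237 in cac2 cells, and 276 and 282 in cac3 cells and fell by 0.44 on the log2 scale (SE 0.07, adjusted p = 0.0015), while SUT442 was at 88.2 and 113 in wild type, 95.2 and 82.1 in cac1 cells, 106 and 107 in cac2 cells, and 113 and 104 in cac3 cells and did not pass. Of 7 genes of DNA repair and checkpoint, 3 SUTs and 1 ORF-T rose. The remaining groups were 5 genes of hexose transport and glucose sensing (2 SUTs rose, 2 ORF-Ts rose and 2 fell) and 4 of glycogen and trehalose (1 SUT and 2 ORF-Ts rose).

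The mutants were also compared with each other. In cac1 against cac3, 1 (0.448%) was higher and 0 lower, where 0.674% and 0.688% of all features were, and 35 and 7 had an unadjusted p under 0.05. In cac2 against cac3, 1 was higher and 0 lower, against 0.344% and 0.261% of all features, with 24 and 3 unadjusted. In cac1 against cac2, 0 passed in either direction in edgeR and in DESeq2, with 11 and 5 unadjusted in edgeR, and 0.0413% and 0.0138% of all features passed. DESeq2 gave the same counts in the other comparisons between mutants. With the replicate block, 20 were higher and 3 lower in cac1 than in cac3 (4.76% and 3.84% of all features). With the block, 9 and 0 were in cac2 against cac3 (1.75% and 0.99%), and 1 and 0 in cac1 against cac2 (0.413% and 0.413%). No SUT to ORF-T ratio of an antisense SUT passed between mutants by limma, with 17 and 9, 16 and 5, and 6 and 10 unadjusted in the same order of comparisons. Of all pairs, 0.101% and 0.302% passed in cac1 against cac3, 0.101% and 0.403% in cac2 against cac3, and 0.0% either way in cac1 against cac2. With the replicate block, 1 ratio shifted towards the SUT and 2 towards the ORF-T in cac1 against cac3, and 1 towards the SUT in each of the other comparisons between mutants.

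The SUT that passed in both comparisons with cac3 was SUT435 (chromosome I, 33077 to 34381, minus strand), opposite BDH2, a gene akin to butanediol dehydrogenase. It was at 34.97 and 38.3 in wild type, 58.95 and 58.7 in cac1 cells, 56.6 and 57.7 in cac2 cells, and 32.5 and 34.99 in cac3 cells. The cac1 and cac2 libraries stood together above wild type, and cac3 overlapped wild type. It rose in cac1 by 0.66 (SE 0.10, adjusted p = 0.00148) and in cac2 by 0.62 (SE 0.10, adjusted p = 0.00226), and had -0.14 (SE 0.09, adjusted p = 0.426) in cac3. BDH2 was at 32.5 and 29.1 in wild type, 38.7 and 30.96 in cac1 cells, 28.8 and 32.9 in cac2 cells, and 21.5 and 26.01 in cac3 cells and did not pass. The difference between cac2 and cac3 was not called without cac2 replicate 2.

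Genes for factors of chromatin and transcript decay were counted in the same fit. Of 48 such genes, among them SET2, SPT6, SPT16, ASF1, the HIR genes, NRD1, RRP6 and XRN1, 1 rose and 2 fell in the mean of the mutants, where 11.9% and 8.86% of all features did, with a median log2 change of -0.0091. In cac1 1 rose and 1 fell (10.8% and 8.38% of all features), and in cac2 1 rose and 3 fell (9.57% and 5.94%). In cac3 0 passed in edgeR and in DESeq2, with 3 higher and 4 lower at an unadjusted p under 0.05 in edgeR, where 3.7% and 2.38% of all features passed.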

How the data were processed

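NET-seq was read in 8 libraries of Saccharomyces cerevisiae, 2 biological replicates each of wild type, cac1, cac2 and cac3, each with 1 table of ORF-Ts and 1 of noncoding features. The deposited values are whole-number read counts per annotated span, made by the authors and used as deposited. Per the file headers, each row gives the chromosome, strand, start, end, type and name of a feature with its span count, and the further columns (divergent counts, ratios and RPKM) were not used. The sources used here name no aligner, genome build or rule for overlapping features. Coordinates are those of the deposited tables, and length is end minus start.

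Antisense SUTs were paired with the ORF-T they overlap most. Counts of 7272 features were fitted with edgeR 4.0.16 (quasi-likelihood, TMM factors from ORF-Ts, group means over all 8 libraries) in R 4.3.3, after features under 1 RPKM in all but 1 library or in all were dropped, which left 7271. P-values were adjusted by Benjamini-Hochberg over those, with a threshold of 0.05. The log2 ratio of SUT to ORF-T (pseudocount of 1 on normalized counts) was tested with limma 3.58.1 over 993 pairs. The comparisons with wild type share the same 2 wild-type libraries, so each is given by its own values. DESeq2 1.42.0 was an alternative. The other alternatives were no scaling, other filters and pseudocounts, other limits of the antisense rule, a replicate block and each library left out in turn. The share of reads without the 10 SUTs of most reads was added after seeing the data. Fits were checked on simulated counts, with changes of a single size placed only in features of at least 50 reads per library on average. That check does not cover SUTs of few reads or smaller changes. Libraries with the same replicate number deviated together in all 6 pairs of groups (correlation 0.371 to 0.568). This is a hint from the data that the numbers pair the libraries, as the labels do not say what a number shares. The main edgeR and limma fits did not use this pairing, and the replicate block was run only as an alternative. For SUTs with few reads, exact 95% intervals cover counting error only.

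SUTs named in the text were, each with its ORF-T, the 6 of highest wild-type level, up to 8 rises and 8 falls of largest size past the threshold at 5 RPKM or more with all mutant libraries on one side of wild type, the 2 largest in each direction per mutant and per pair of mutants, up to 6 pairs that passed in opposite directions and 6 in the same, up to 6 with the highest SUT to ORF-T ratio, any opposite 8 genes known for antisense transcripts (GAL10 had one), and those at the limits of the rule. SUT820, SUT637, SUT366 and genes named with their functional group were chosen after their values were seen. The members and the gene lists were chosen with earlier results of these data known.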

Additional observations from a re-analysis of the deposited data

How the results depend on the processing

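Counts of antisense SUTs called against wild type were lower in DESeq2. They were 29 rises and 2 falls in cac1, where 5.53% and 4.39% of all features did, and 29 and 1 in cac2, against 4.41% and 3.44%. In cac3 they were 9 and 1, against 1.73% and 1.03%, and in the mean 39 and 2, against 5.58% and 4.63%. With no scaling beyond the library total, 5 fell in cac1 and 2 in cac3, where 4.51% and 1.72% of all features did. In that setting 3 were higher in cac1 than in cac3, against 1.14% of all features. With the replicate block, 13 fell in cac1, 54 rose and 7 fell in cac3, 14 fell in the mean, 20 were higher and 3 lower in cac1 than in cac3, 9 were higher in cac2 than in cac3 and 1 was higher in cac1 than in cac2. The paired fit of the ratio gave 27 shifts towards the ORF-T in cac2, 35 towards the SUT and 18 towards the ORF-T in cac3, 1 and 2 between cac1 and cac3, 1 towards the SUT between cac2 and cac3 and 1 between cac1 and cac2. The 34 SUTs chosen by the naming rule were followed in the mean of the mutants. There the block added calls for SUT103, SUT154, SUT504, SUT763 and SUT802 as falls. It also added calls for the ratios of SUT504, SUT802 and SUT034, and changed no other call among those 34. The other SUTs named were not followed across the alternatives. Under an overlap of at least 80% or a divergent limit of 1000 bp, 0 SUTs were called between cac1 and cac3 or between cac2 and cac3, since SUT435 is then no member. Shares of all features with the block are given above, and shares over all pairs were not counted for the paired fit of the ratio. The cause of the other changes was not tested.

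Leaving out 1 library at a time gave 15 to 63 rises and 1 to 7 falls in cac1, 13 to 56 and 1 to 6 in cac2, 2 to 24 and 0 to 5 in cac3, 13 to 67 and 1 to 8 in the mean, and 0 to 1 higher in cac2 than in cac3. For the ratio the ranges were 25 to 52 and 12 to 24 in cac1, 30 to 47 and 13 to 21 in cac2, 3 to 22 and 0 to 11 in cac3, and 39 to 54 and 16 to 23 in the mean. For the 34 SUTs chosen by the naming rule, direction was compared in the mean of the mutants. No SUT or ratio change past its threshold there reversed among the alternatives run. Wild type replicate 1 has the lowest depth and 16 antisense SUTs with no read, against 7 in replicate 2, which limits what can be called at low level.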
